A study of Mus musculus with 7 samples.

Results

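Mature neutrophils of the mouse heart were taken from 7 droplet single-cell RNA libraries by a rule on their transcripts. Barcodes with under 500 UMIs (unique molecular identifiers, 1 per captured transcript), with under 300 genes or with more than 15% mitochondrial UMIs were dropped first. Members were selected on their levels of S100a8, S100a9, Csf3r and a few genes of other cells. A kept barcode was called a mature neutrophil when S100a8 and S100a9 together made up at least 1% of its UMIs, Csf3r had at least 1 UMI, and the secondary granule genes Camp, Ngp and Ltf together stayed under 0.5%. Barcodes with any Ccr2 UMI, or with more than 2 UMIs of C1qa, C1qb and C1qc, were left out. The rule found 3849 mature neutrophils among 40158 kept barcodes. The same rule with Camp, Ngp and Ltf at 0.5% or more found 272 immature neutrophils.

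Hearts came from mice labelled C57BL6/J (WT below) or MerTK KO (KO below), at P1 or at 8 weeks, after myocardial infarction (MI) or a sham operation. Mertk is a receptor with which macrophages take up apoptotic cells, and apoptotic neutrophils are among its classical cargo. There were 2 libraries of infarcted WT hearts at P1, and 1 library each of sham hearts at P1 and 8 weeks, of infarcted hearts at 8 weeks, and of KO hearts after sham operation and after MI at P1. All groups shared perfusion, digestion with collagenase, red cell lysis, removal of Annexin V binding cells and mixing of CD45+ with CD45- cells at 2 to 1. Annexin V binds dying cells, so apoptotic neutrophils were selected against in every library. The labels do not give the time after surgery, the number of hearts in a library or the part of Mertk that was deleted.

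Neutrophils are short-lived granulocytes that leave the bone marrow and enter injured tissue first. They mature in the marrow while they make granule proteins in waves, primary granules first, then secondary and tertiary ones, and the transcripts of the early waves are gone when the cell is released. Chemokine receptors mark the same passage, since CXCR4 retains cells in the marrow and CXCR2 draws them into blood and tissue. After an infarct they release proteases, alarmins and cytokines, then die and are cleared by macrophages.

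The 5 libraries with at least 20 members were compared, and their values are given below always in 1 order: WT sham at P1, WT MI at P1 (replicate 2), WT sham at 8 weeks, KO sham and KO MI, both at P1. They held 40, 531, 970, 313 and 1978 members with 155326, 3586512, 3107873, 1452644 and 8710760 UMIs. In WT P1 sham 1 UMI was thus worth 6.44 CPM, the count scaled to a total of 1000000 UMIs per library, and a count of 0 allowed a level of up to 19.3 CPM. The median member had 2931, 5068, 2189, 4020 and 3080.5 UMIs. WT P1 MI replicate 1 with 14 members and WT 8 week MI with 3 were counted but not compared, so no comparison rests on replicate libraries. The WT 8 week sham library and replicate 2 of WT P1 MI carry another Cell Ranger version in their headers than the other libraries. Xist was found at 64.4 to 204 CPM in members of both P1 sham libraries and of WT P1 MI replicate 2, at 12.6 CPM in KO P1 MI and at 0 in WT 8 week sham, while Ddx3y, on the Y chromosome, was at 142, 136 and 59.8 CPM in WT P1 sham, WT 8 week sham and KO P1 MI. These sex-linked levels differed between libraries, so sex and group cannot be told apart. Of the members, 1 barcode was shared between 2 libraries.

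Transcripts of other cell types were present among the members and differed between libraries. In 22.5, 52.2, 34.2, 14.1 and 22.0% of members at least 5 UMIs came from markers of other lineages, and these members held 44.7, 71.2, 57.3, 26.0 and 42.5% of all member UMIs. The 7 fibroblast markers summed to 83.7, 3779, 1859, 1492 and 2675 CPM, and the 7 B cell markers to 1378, 381, 1645, 74.3 and 33.6 CPM. Each count of changed genes is therefore also given over members with under 5 such UMIs, an alternative added after the data had been seen. The markers were the fibroblast, endothelial, cardiomyocyte, B cell and T and NK cell lists with some macrophage and monocyte genes, Fn1 among them. Loss of a call for such a marker in this alternative is therefore largely fixed by the removal. Each of the 7 B cell markers was detected in every compared library, and Dcn, Pdgfra and Lum of the fibroblast markers were at 0 in WT P1 sham. B cells of the same libraries held S100a8 and S100a9 at 124, 2736, 141, 108 and 5176 CPM, against 106988, 166315, 84520, 163043 and 117845 CPM in members.

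The label held against markers that the rule had not used. Cxcr2, the main chemokine receptor of circulating neutrophils, was at 509, 353, 955, 447 and 309 CPM. The 8 week library was highest and KO P1 MI lowest. After each cell had been thinned to 500 UMIs, 30, 19.96, 42.3, 20.1 and 18.0% of members had a Cxcr2 UMI, against at most 0.469% of B cells thinned likewise. Retnlg, which encodes a resistin-like protein of neutrophils, was at 10166, 15620, 5785, 12781 and 15770 CPM, and Mmp9, the gelatinase of tertiary granules, at 979, 651, 860.1, 753 and 829.7 CPM. Cxcr2, Retnlg, Mmp9 and Itgam (the integrin CD11b) passed the test in none of the comparisons by age, injury or genotype. Of 6 primary granule genes only Prtn3 (proteinase 3) had counts enough to be tested. Prtn3, a gene of early maturation chosen after its values had been seen, had 0, 64, 10, 11 and 504 UMIs and was called higher after injury (log2 fold change 3.005 ± 0.67 (SE), edgeR adjusted p = 7.35e-04) and in KO (log2 fold change 1.97 ± 0.60 (SE), edgeR adjusted p = 0.0411). KO P1 MI held most of these UMIs. The second call was lost over members with few other-lineage UMIs (1.84) and its sign turned with the 2 small libraries included (-3.70), and DESeq2 made neither call. Ly6g, the classical surface marker, was low in every library at 57.9, 136, 35.7, 62.6 and 112 CPM.

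Mature neutrophils made up a different share of each library. They were 2.52% (95% exact binomial interval 1.80 to 3.41) of kept barcodes in WT P1 sham, 1.81% and 5.24% in the WT P1 MI replicates, 6.33% in WT 8 week sham and 0.0958% in WT 8 week MI. In KO P1 sham they were 11.99% (10.8 to 13.3) and in KO P1 MI 29.9% (28.8 to 31.1). Both KO libraries lay above all 5 WT libraries. With only barcodes that had a Ptprc (CD45) UMI as denominator the shares were 4.92, 5.28, 18.1, 9.71, 0.210, 20.6 and 33.7% for the same 7 libraries, sham before MI and WT P1 before WT 8 weeks before KO. The mixing of CD45+ and CD45- cells also sets such shares, the rule fixed them, and no test was made. Of mature and immature neutrophils together, mature cells were 86.2% in WT P1 MI replicate 2, 77.7% in KO P1 sham, 95.7% in KO P1 MI and 99.7% in WT 8 week sham. Immature cells were thus most frequent in KO P1 sham, with 90 beside 313 mature ones, and rarest at 8 weeks, with 3 beside 970. With the rule applied after thinning to 1000 UMIs these libraries lay closer together. Mature cells were then 88.7% in KO P1 sham (23 immature beside 181) and 91.0% in WT P1 MI replicate 2 (27 beside 272). They were 97.1% in KO P1 MI and 100% in WT 8 week sham.

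**Figure D1:**
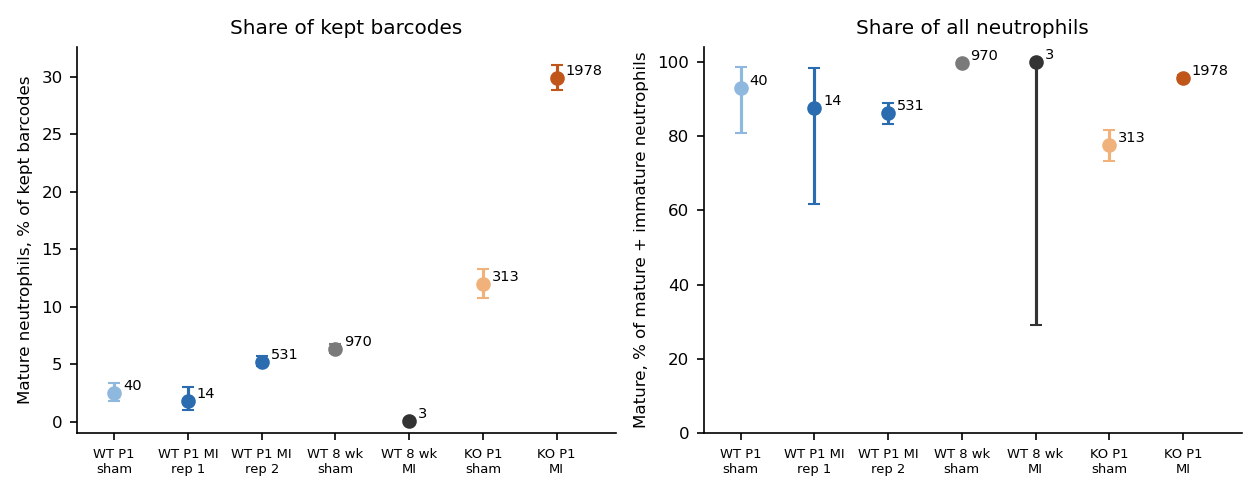
Share of kept barcodes that were mature neutrophils (left, %) and share of mature among mature and immature neutrophils (right, %) in each of the 7 libraries. Points are libraries, bars are exact 95% binomial intervals that cover counting error only, and the number beside a point is its count of mature neutrophils. KO P1 MI reached 29.9% of barcodes and WT 8 week MI held 3 cells.

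Barcodes close to the thresholds were counted. Across the 5 compared libraries 2, 12, 60, 20 and 99 members had 1 to 2% of UMIs from S100a8 and S100a9, while 1, 6, 31, 15 and 62 barcodes with 0.5 to 1% missed the rule on that ground. In 0, 21, 0, 23 and 46 members Camp, Ngp and Ltf made up 0.25 to 0.5%, against 0, 12, 0, 21 and 34 barcodes with 0.5 to 1% that counted as immature. The cut on Csf3r alone dropped 2, 98, 43, 54 and 852 barcodes, the cut on Ccr2 alone 2, 148, 69, 33 and 338, and the C1q cut alone 1, 101, 40, 4 and 109. No UMI of Camp, Ngp and Ltf was found in 82.5, 65.3, 97.7, 56.6 and 77.7% of members.

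Members also differed among themselves along the tertiary granule genes Mmp8, Mmp9, Retnlg and Lcn2, whose median share of UMIs was 0.693, 1.75, 0.661, 1.73 and 2.39%. Each library was split at its median, and the other genes were compared between the groups above and below it with these 4 left out of the total. Ly6g was higher in the upper group in 4 of 4 libraries with at least 30 UMIs, at 243 against 49.7 CPM in WT P1 MI and 76.5 against 11.5 CPM at 8 weeks. Cd177, the neutrophil surface partner of proteinase 3, had 221 against 39.7 CPM in WT P1 MI and 421 against 71.6 CPM in KO P1 sham. Anxa1, whose product annexin A1 limits neutrophil recruitment, Pglyrp1, a bactericidal granule protein, Wfdc21 and the receptor gene Ltb4r1 were higher in the upper group in every library with enough UMIs. Csf1, the macrophage growth factor, the adhesion receptor gene Icam1 and Cybb, the catalytic subunit of the NADPH oxidase, were lower there in every such library, with Csf1 at 50.2 against 356 CPM in KO P1 sham. For Cxcr4 and Il1b the libraries went both ways. The groups differed in depth, with a median of 6091.5 against 1994 UMIs in KO P1 sham but 2149 against 2374 at 8 weeks, and its part in these differences was not tested. S100a8 and S100a9, which chose the members, were higher in the upper group in all 5 libraries. S100a8 was at 79236 against 26173 CPM in WT P1 sham. The part of transcripts of other cells in the split was not tested either.

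**Figure D2:**
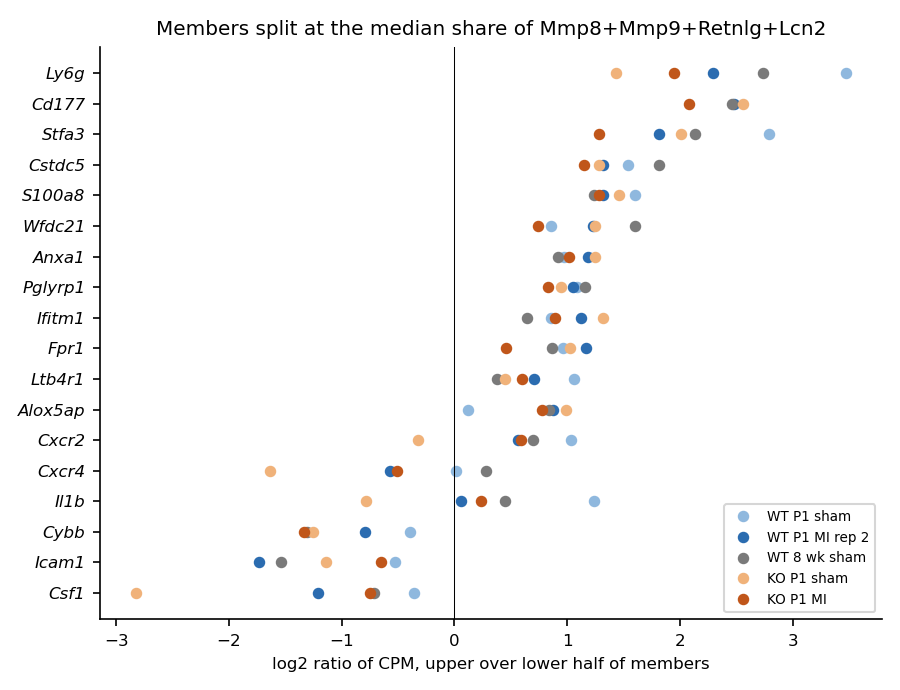
log2 ratio of CPM between the upper and the lower group of members, split within each library at the median share of Mmp8, Mmp9, Retnlg and Lcn2, for 18 genes (rows). Each point is 1 of the 5 compared libraries, with no error bar. Ly6g and Cd177 lie to the right of 0, Cybb, Icam1 and Csf1 to the left, and Cxcr4 and Il1b on both sides.

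To ask how mature neutrophils differed by age, injury and genotype, the counts were summed over the members of a library and fitted with edgeR in 1 additive model over 11052 genes. The 3 effects share the same 5 libraries. A single residual degree of freedom, the difference of the injury effect between genotypes, set the spread, edgeR shared it over all genes, and every library was assumed to vary alike. A call needed an edgeR adjusted p below 0.05 together with at least a 2-fold change. Between 8 weeks and P1, 131 genes were called higher (1.19%) and 52 lower (0.471%). Between MI and sham, 290 were higher (2.62%) and 68 lower (0.615%), and between KO and WT, 187 were higher (1.69%) and 119 lower (1.08%). DESeq2 called 24, 17 and 37 genes for age, injury and genotype, all among those of edgeR. Over members with few other-lineage UMIs edgeR called 90, 107 and 104 genes, of which 62, 68 and 65 were called in the same direction with all members. Thinning each cell to 500 UMIs left 21, 29 and 15 calls. Of 125 called changes of named genes DESeq2 kept 28. Genes described below that it did not call include Ltb4r1, Cxcr4, Ccl3, Ccl4, Il1a, Cxcl2, Chil3 and Mertk by genotype. By injury they include Ccl2, Ccl4, Cxcr4, Tsc22d3, Dennd4a, Mirt1, Olfm4, Prok2, Tpi1, Pgk1, Hilpda and Fam162a. By age they include Ccl4, Clec4e and Oasl2.

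Genes of the stefin A cluster were lower at 8 weeks than at P1. They encode small inhibitors of cysteine proteases and form a row of near-identical copies on chromosome 16, between which short reads may be split. Of 8 tested genes on the list 7 were called lower at 8 weeks. The remaining gene was Cstb, which encodes stefin B and not a stefin A. Stfa1 was at 21645, 17038, 61.5, 18554 and 13156 CPM, with every P1 library far above the 8 week one (log2 fold change -8.37 ± 0.88 (SE), edgeR adjusted p = 1.92e-18). Stfa2 was at 6090.4, 8380, 2.25, 8712 and 5794 CPM (log2 fold change -11.56 ± 0.94 (SE), edgeR adjusted p = 2.93e-31). Stfa2l1 kept the largest remainder, at 6728, 6239, 488, 6647 and 4412 CPM (log2 fold change -3.80 ± 0.63 (SE), edgeR adjusted p = 7.13e-07). Csta2 and Csta3, which were not on the list, were called lower too, with log2 fold changes of -11.82 and -6.53. None of the 8 was called by injury or genotype, where edgeR gave an unadjusted p under 0.05 for 1 gene each and DESeq2 called none. The promoters of 4 of these genes are printed because the genes moved together, from 250 bases before to 50 after the start, 5′ to 3′ on the strand of the gene, as RefSeq gives them on GRCm38.p6. Over all 9 matched genes of the row the longest shared run was 6 bases, which 3796 of 27025 promoters hold. Capitals mark the longest run that all 4 share, 17 bases that span or adjoin the start site, which 6 of 27025 mouse promoters of that length hold on the gene's strand. Cstdc5 and Csta3 of the same row of copies hold these 17 bases too.
Stfa1 (chr16:36276898-36277197, + strand): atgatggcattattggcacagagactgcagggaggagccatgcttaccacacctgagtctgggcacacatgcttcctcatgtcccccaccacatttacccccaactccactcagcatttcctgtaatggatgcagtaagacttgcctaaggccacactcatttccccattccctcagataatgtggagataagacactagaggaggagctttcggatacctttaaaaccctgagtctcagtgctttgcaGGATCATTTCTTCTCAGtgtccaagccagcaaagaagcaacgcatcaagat
Stfa2 (chr16:36408314-36408613, - strand): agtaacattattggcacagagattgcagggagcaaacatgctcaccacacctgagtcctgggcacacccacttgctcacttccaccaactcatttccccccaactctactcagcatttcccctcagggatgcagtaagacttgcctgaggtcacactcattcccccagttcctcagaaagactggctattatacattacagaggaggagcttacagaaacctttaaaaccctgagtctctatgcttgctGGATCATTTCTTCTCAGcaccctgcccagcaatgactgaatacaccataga
Stfa3 (chr16:36455343-36455642, - strand): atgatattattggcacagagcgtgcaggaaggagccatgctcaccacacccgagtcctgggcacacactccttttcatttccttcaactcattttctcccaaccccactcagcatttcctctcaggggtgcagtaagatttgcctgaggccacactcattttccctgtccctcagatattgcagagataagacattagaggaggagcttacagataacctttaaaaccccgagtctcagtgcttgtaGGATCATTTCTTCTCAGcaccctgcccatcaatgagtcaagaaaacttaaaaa
Stfa2l1 (chr16:36156561-36156860, + strand): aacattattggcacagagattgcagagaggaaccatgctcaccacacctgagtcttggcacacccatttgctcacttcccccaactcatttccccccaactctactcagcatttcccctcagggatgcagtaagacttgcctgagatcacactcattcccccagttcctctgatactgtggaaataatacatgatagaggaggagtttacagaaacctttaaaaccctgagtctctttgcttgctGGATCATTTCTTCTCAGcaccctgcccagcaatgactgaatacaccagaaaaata

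Of 14 secondary and tertiary granule genes 3 were called lower at 8 weeks (Olfm4, Chil3 and Cd177), and 2 over members with few other-lineage UMIs. Between the WT sham libraries, Chil3 was at 0 CPM at P1 and 5.79 CPM at 8 weeks, and Cd177 differed little. The log2 fold change of Chil3 by age was 6.97 without WT P1 MI replicate 2, 7.19 without KO P1 sham and 6.39 without KO P1 MI. The calls of Chil3 and Cd177 thus rested on the additive model and not on the WT sham pair. Olfm4 (olfactomedin 4), which marks a subset of neutrophils, was at 373, 101, 4.5, 238 and 46.8 CPM (log2 fold change -6.39 ± 0.67 (SE), edgeR adjusted p = 3.31e-18), lower at 8 weeks than in any P1 library. Prok2, a chemoattractant made by neutrophils and chosen here after its values had been seen, was at 51.5, 569.9, 1.29, 291 and 579 CPM, near 0 at 8 weeks alone (log2 fold change -6.34 ± 0.73 (SE), edgeR adjusted p = 3.05e-15). Camp, Ngp and Ltf chose the members and are not tested here.

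Interferon-response genes were higher at 8 weeks. Of 28 listed genes 13 were called higher and none lower (10 over members with few other-lineage UMIs), with a median log2 fold change of 2.26 against 0.277 over all genes tested. Isg15, a ubiquitin-like modifier, was at 12.9, 49.6, 644, 31 and 62.6 CPM, and the 8 week library lay far above the highest P1 library (log2 fold change 4.99 ± 0.56 (SE), edgeR adjusted p = 6.88e-16). Rsad2, the antiviral enzyme viperin, chosen after its values had been seen, was at 12.9, 12.3, 203, 5.51 and 9.3 CPM (log2 fold change 4.39 ± 0.71 (SE), edgeR adjusted p = 2.27e-07). Oasl2 followed with 3.13 ± 0.63 (adjusted p = 1.14e-04, edgeR). Rtp4, Zbp1, Bst2, Slfn5, Isg20 and Ifitm3 were among the others, of which Bst2 and Ifitm3 lost their calls over members with few other-lineage UMIs. KO P1 MI exceeded WT 8 week sham for Zbp1 (85.1 against 45.0 CPM) and for Ifitm3 (1920 against 1379 CPM). DESeq2 called 2 of the 13, Isg15 and Rsad2. Ifit3 rested on 0, 6, 140, 1 and 15 UMIs. Only 1 library was from 8 weeks, so age and the single library cannot be told apart.

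Ptgs2, the inducible cyclooxygenase that makes the precursor of prostaglandins, was at 155, 124, 1469, 66.8 and 119 CPM, higher at 8 weeks than in every P1 library (log2 fold change 3.70 ± 0.47 (SE), edgeR adjusted p = 2.38e-12). Il1b, a cytokine that neutrophils store as an inactive precursor, was at 3856, 6144, 14744, 5578 and 10663 CPM (log2 fold change 2.13 ± 0.56 (SE), edgeR adjusted p = 0.0128), and this call was lost with DESeq2 and among members with few other-lineage UMIs (log2 fold change 2.14). Ccl4, a chemokine for monocytes and T cells, was at 32.2, 626, 967, 599.6 and 1246 CPM, lowest in WT P1 sham with 5 UMIs (log2 fold change 3.36 ± 0.54 (SE), edgeR adjusted p = 2.48e-07). Clec4e, a receptor for damaged cells, was also higher (1.90 ± 0.50, adjusted p = 0.0118, edgeR), as were Gadd45b, Cebpd and Fos. Fos and the heat shock genes Hspa1a, Hspa1b and Hspb1, which tissue digestion can induce, were 4 of 15 such genes called higher, and their part in these results was not tested. Ccl5, a T cell chemokine called higher too, was at 0, 9.76, 469, 0 and 97.1 CPM, and the T and NK cell markers Nkg7 and Gzma were called higher beside it. Over members with few other-lineage UMIs Ccl5 was called again, and Nkg7 and Gzma were not. Nkg7 and Gzma were among the markers by which members were removed, so their loss was largely fixed in advance. The part of such cells was not tested.

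**Figure D3:**
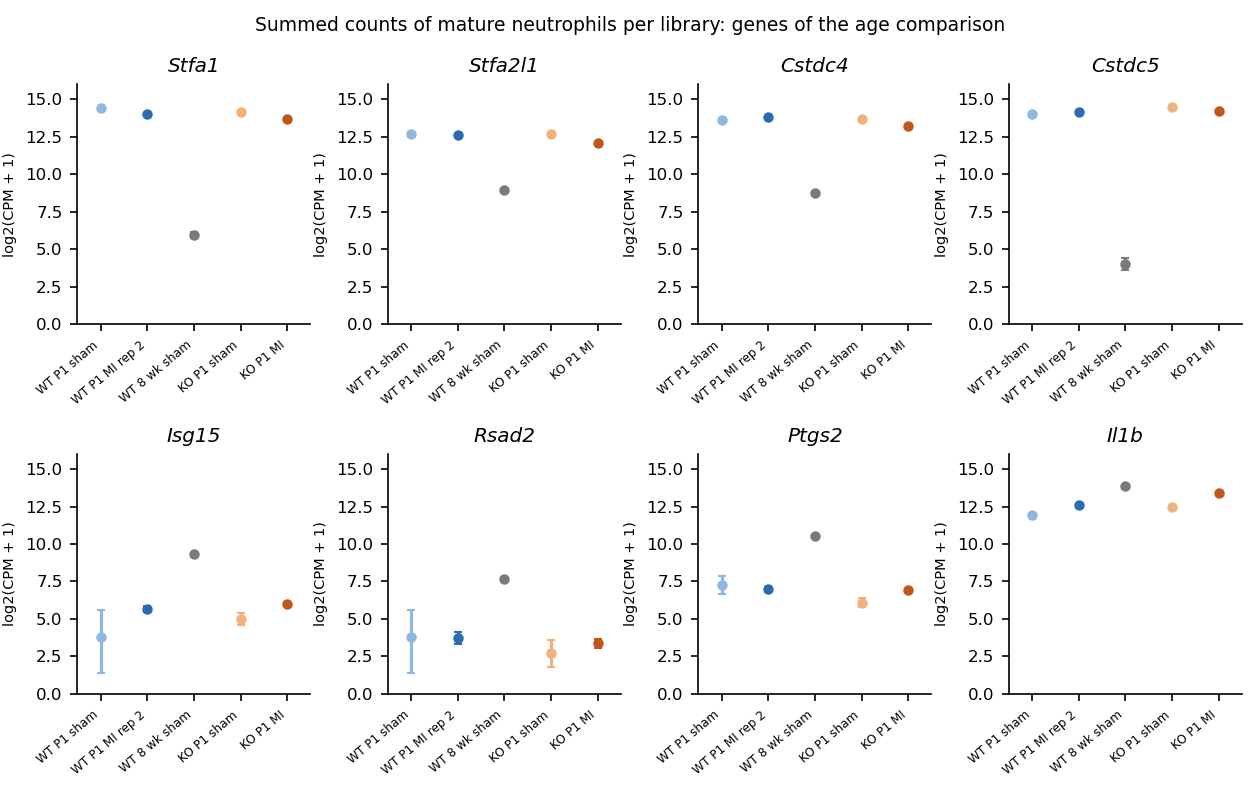
log2(CPM + 1) of 8 genes in the summed counts of mature neutrophils, 1 point a library with its exact 95% Poisson interval (counting error only). The stefin genes (top row) are low in WT 8 week sham alone, where Stfa1 was at 61.5 CPM, and Isg15, Rsad2, Ptgs2 and Il1b (bottom row) are highest there.

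Lcn2, Wfdc17 and Saa3 were called higher in the libraries labelled MerTK KO than in WT. Lcn2 (lipocalin 2), an iron-binding granule protein, was at 328, 3634, 734, 11302 and 7887 CPM. Both KO libraries were above every WT library (log2 fold change 3.48 ± 0.53 (SE), edgeR adjusted p = 2.32e-08). Its log2 ratio of KO to WT was 5.09 (4.71 to 5.53) among sham libraries and 1.12 (1.09 to 1.14) among MI libraries, with 95% counting intervals. Wfdc17, a secreted protein of the whey acidic family, was at 122, 4523, 1227, 10198 and 7799 CPM (log2 fold change 3.81 ± 0.59 (SE), edgeR adjusted p = 4.27e-08), with 6.34 (5.74 to 7.11) among sham and 0.79 (0.76 to 0.81) among MI libraries. Saa3 (serum amyloid A3), an acute-phase protein, was at 0, 1786, 100.1, 12251 and 8698 CPM (log2 fold change 5.61 ± 0.62 (SE), edgeR adjusted p = 1.95e-16). With no UMI in WT P1 sham, KO P1 sham was at least 634-fold higher against a floor of 3 counts. For these 3 genes WT P1 sham was lowest, and both KO libraries exceeded every WT library. The fibroblast markers Col1a2, Dcn and Col3a1 (3 of 7) and the monocyte markers F13a1 and Fn1 (2 of 6) were called higher in KO beside them, and the monocyte marker S100a4 lower. The monocyte markers summed to 367, 569, 509, 435 and 859 CPM, with Ccr2 at 0 by the rule and F13a1 and Vcan at 0 in WT P1 sham. Over members with few other-lineage UMIs no marker of either list was called, and the part of such cells was not tested. The fibroblast markers and Fn1 were among the markers by which members were removed, so their loss was largely fixed in advance. Lcn2, Wfdc17 and Saa3 were also called over members with few other-lineage UMIs (log2 fold changes 3.04, 3.51 and 4.08). DESeq2 called Lcn2 and Wfdc17 as well, and Saa3 did not pass there (adjusted p = 0.631 with DESeq2). After removal of likely doublets by Scrublet, Saa3 was called again, while Lcn2 and Wfdc17 were not.

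Receptors for chemoattractants followed. Of 16 such receptor genes 4 were called higher and 1 lower in KO. Ltb4r1, the receptor for leukotriene B4, was at 96.6, 181, 67.9, 341 and 426 CPM, and both KO libraries were above all WT libraries (log2 fold change 1.89 ± 0.38 (SE), edgeR adjusted p = 6.57e-05). Its ratios were 1.77 (1.08 to 2.67) among sham and 1.23 (1.11 to 1.36) among MI libraries on the log2 scale, and it was called again among members with few other-lineage UMIs. Ltb4r1 was not called after removal by Scrublet. Fpr1, the receptor for formylated peptides from bacteria and mitochondria, was at 77.3, 257, 104, 393 and 375 CPM (log2 fold change 1.70 ± 0.38 (SE), edgeR adjusted p = 8.42e-04), and lost its call in that alternative (log2 fold change 1.15). Csf2rb, the shared receptor chain for GM-CSF, and Il1r2, the decoy receptor for interleukin 1, were the others, with log2 fold changes of 1.23 and 1.20, and lost their calls likewise (0.79 and 0.82). Cxcr4 went the other way, at 322, 107, 572, 84.7 and 24.6 CPM (log2 fold change -1.59 ± 0.37 (SE), edgeR adjusted p = 0.00166). It was lower in KO than in WT among sham libraries (-1.94 (-2.41 to -1.42)) and among MI libraries (-2.11 (-2.36 to -1.87)), and it was called again among members with few other-lineage UMIs (-2.08).

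Cytokine and chemokine genes were higher in KO. Of 19 listed genes 5 were called higher and none lower, and 5 were called over members with few other-lineage UMIs (Ccl3, Ccl4 and Il1a among them) and none by DESeq2, with a median log2 fold change of 1.02 against 0.0607 over all genes tested. Ccl3, a chemokine for monocytes and neutrophils, was at 109, 538, 446, 1114 and 1188 CPM (log2 fold change 2.54 ± 0.40 (SE), edgeR adjusted p = 8.44e-08), and Ccl4 rose with it (2.58 ± 0.42, adjusted p = 1.79e-07, edgeR). Both KO libraries were above all WT libraries for Ccl3, while for Ccl4 the WT P1 MI and 8 week libraries exceeded KO P1 sham. Neither gene was called by genotype after removal by Scrublet. Il1a, an alarmin, was at 0, 36.8, 14.2, 92.9 and 128 CPM (log2 fold change 2.66 ± 0.49 (SE), edgeR adjusted p = 8.06e-06). Cxcl2, the CXCR2 ligand that neutrophils make themselves, was at 3432, 11166, 3977, 9271 and 20232 CPM, and WT P1 MI exceeded KO P1 sham (log2 fold change 1.59 ± 0.45 (SE), edgeR adjusted p = 0.0218). The call for Cxcl2 was lost among members with few other-lineage UMIs (log2 fold change 1.04). Tnf passed in no comparison.

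Other genes higher in KO included Ifitm1, an interferon-induced membrane protein, at 682, 9972, 1713, 9516 and 15950 CPM (log2 fold change 2.66 ± 0.52 (SE), edgeR adjusted p = 4.63e-05), where WT P1 MI exceeded KO P1 sham, the collagenase gene Mmp8 (1.35 ± 0.38) and Hp (haptoglobin, 1.94 ± 0.40). All 3 lost their calls over members with few other-lineage UMIs (2.26, 1.16 and 1.03). The death-promoting gene Bcl2l11 (BIM), its antagonist Bcl2l1 and Cd47, the signal against engulfment, were 3 of 23 apoptosis and clearance genes called, all higher. Cd47 was at 142, 247, 287, 358 and 339 CPM (log2 fold change 1.27 ± 0.37 (SE), edgeR adjusted p = 0.0248). All 3 lost their calls among members with few other-lineage UMIs (Bcl2l1 1.21, Bcl2l11 0.84 and Cd47 1.12). Timp1, an inhibitor of metalloproteinases, was at 0, 22.3, 9.01, 62 and 1157 CPM, and Clu (clusterin) at 0, 6.13, 16.7, 5.51 and 774 CPM, so KO P1 MI alone was high. Chil3, a chitinase-like granule protein, was at 0, 11.4, 5.79, 803 and 10.4 CPM, high in KO P1 sham alone, where immature neutrophils were most frequent. The additive model called Timp1 (5.92), Clu (7.13) and Chil3 (2.64) although 1 library carried each difference. Calls lower in KO included Cd74, H2-Aa, H2-Ab1, H2-Eb1 and Ccr7, together with 6 of 7 B cell markers and 4 of 8 T and NK cell markers. H2-Aa was at 187, 62.7, 720.4, 13.8 and 7.23 CPM. The 8 T and NK cell markers summed to 496, 52.4, 467, 10.3 and 11.4 CPM, with Cd3e, Cd3g and Trbc2 at 0 in KO P1 sham. The part of such cells in these lower values was not tested. Over members with few other-lineage UMIs Cd74 (-1.84), H2-Aa (-5.43), H2-Ab1 (-3.43), H2-Eb1 (-4.87) and Ccr7 (-7.78) were called again. DESeq2 called each of these genes too, and after removal by Scrublet all but Cd74 were called.

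The pairs differed in how the scale of a library bore on them. Among genes with at least 50 CPM on average and 30 UMIs, 145 were at least 2-fold higher (6.64%) and 428 lower (19.6%) in KO against WT among sham libraries, and 82 were higher (4.08%) and 112 lower (5.57%) among MI libraries. TMM scaling, which the model uses, moved all log2 ratios by 0.742 and 0.156. The share of higher genes among those past 2-fold then went from 25.3 to 80.0% among sham and from 42.3 to 61.2% among MI libraries. Of the 187 genes called higher 75 were at least 2-fold higher in both pairs by CPM and 36 changed sides between them. Of the 119 called lower 110 were at least 2-fold lower in both. Lcn2, Saa3, Ltb4r1, Ccl3 and Cxcr4 passed 2-fold in both pairs by CPM as well.

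**Figure D4:**
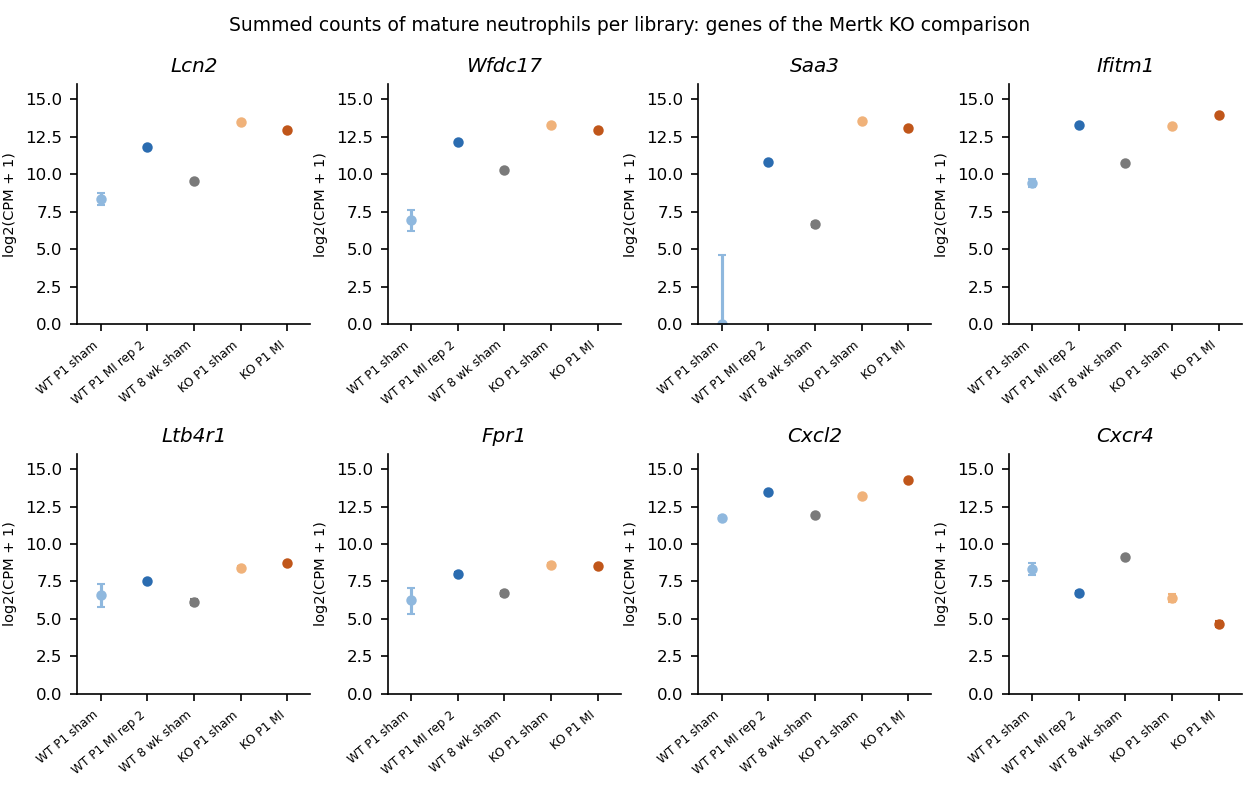
log2(CPM + 1) of 8 genes in the summed counts of mature neutrophils, 1 point a library with its exact 95% Poisson interval (counting error only). Lcn2, Wfdc17, Saa3, Ltb4r1 and Fpr1 are highest in the 2 KO libraries, and Cxcr4 is lowest there, at 84.7 and 24.6 CPM.

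After infarction, glycolysis and hypoxia genes were higher than after sham operation. Of 24 listed genes 9 were called higher and none lower, with a median log2 fold change of 1.15 against 0.214 over all genes tested. Over members with few other-lineage UMIs 9 were called, Mif, Tpi1 and Pgk1 among them, whereas DESeq2 called Mif alone. Mif, a cytokine gene induced by low oxygen, was at 64.4, 506, 114, 208 and 1021 CPM (log2 fold change 2.72 ± 0.39 (SE), edgeR adjusted p = 2.02e-09). MI exceeded sham in both genotypes, with a log2 ratio of 2.91 (2.09 to 4.04) in WT and 2.29 (2.13 to 2.47) in KO. The glycolytic enzyme genes Tpi1 (1.81 ± 0.38), Pgk1 (1.66 ± 0.38) and Gapdh (1.39 ± 0.40) were called too, the last of them not among members with few other-lineage UMIs (1.76). Hilpda, a lipid droplet protein induced by hypoxia and chosen here after its values had been seen, was at 109, 769.5, 40.9, 543 and 1633 CPM (log2 fold change 2.30 ± 0.39 (SE), edgeR adjusted p = 9.31e-07). Fam162a, a mitochondrial protein also induced by hypoxia and likewise chosen afterwards, was at 25.8, 207, 35.7, 149 and 555 CPM (log2 fold change 2.37 ± 0.40 (SE), edgeR adjusted p = 1.14e-06). For both genes each MI library exceeded the sham library of its genotype, and each KO library the WT library of its operation. Of the same 24 genes 10 were called higher in KO, Mif (1.67 ± 0.38) and Hif1a (1.31 ± 0.37) among them, but none of the 24 over members with few other-lineage UMIs (0.92 and 1.16).

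Promoters of this list held the letters ACGTG, the core of the element that hypoxia-inducible factors bind, searched on both strands, in 12 of 21 genes with a promoter in the RefSeq table (57.1%). Of all 27025 promoters of 300 bases 5315 held them (19.7%). The promoters of 3 genes called by injury are printed, on the same build and with the match in capitals (CACGT is the same core on the other strand). A match is not a binding site, and Hilpda had none in this window. The count covers the whole list, which was drawn up for glycolysis and hypoxia, and not the genes called by injury. It therefore describes the list and says nothing about the injury result.
Mif (chr10:75860228-75860527, - strand): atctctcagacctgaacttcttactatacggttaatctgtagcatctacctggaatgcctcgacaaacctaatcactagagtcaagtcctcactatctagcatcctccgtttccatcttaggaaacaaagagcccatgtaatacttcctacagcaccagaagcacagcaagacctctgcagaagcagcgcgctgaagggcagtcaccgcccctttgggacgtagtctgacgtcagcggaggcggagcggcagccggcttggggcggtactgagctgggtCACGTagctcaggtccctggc
Pgk1 (chrX:106186850-106187149, + strand): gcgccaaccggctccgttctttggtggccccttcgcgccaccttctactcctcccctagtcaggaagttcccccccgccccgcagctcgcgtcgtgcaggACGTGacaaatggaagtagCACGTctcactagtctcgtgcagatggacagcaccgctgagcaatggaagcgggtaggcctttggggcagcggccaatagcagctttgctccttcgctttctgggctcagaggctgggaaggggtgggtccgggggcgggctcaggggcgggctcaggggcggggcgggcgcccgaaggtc
Fam162a (chr16:36071512-36071811, - strand): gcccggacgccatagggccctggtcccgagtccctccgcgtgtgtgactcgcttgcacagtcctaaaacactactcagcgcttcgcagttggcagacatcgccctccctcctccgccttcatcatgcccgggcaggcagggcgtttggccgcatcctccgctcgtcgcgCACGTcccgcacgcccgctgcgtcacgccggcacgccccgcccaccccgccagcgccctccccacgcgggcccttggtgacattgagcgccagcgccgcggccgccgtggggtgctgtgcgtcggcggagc

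**Figure D5:**
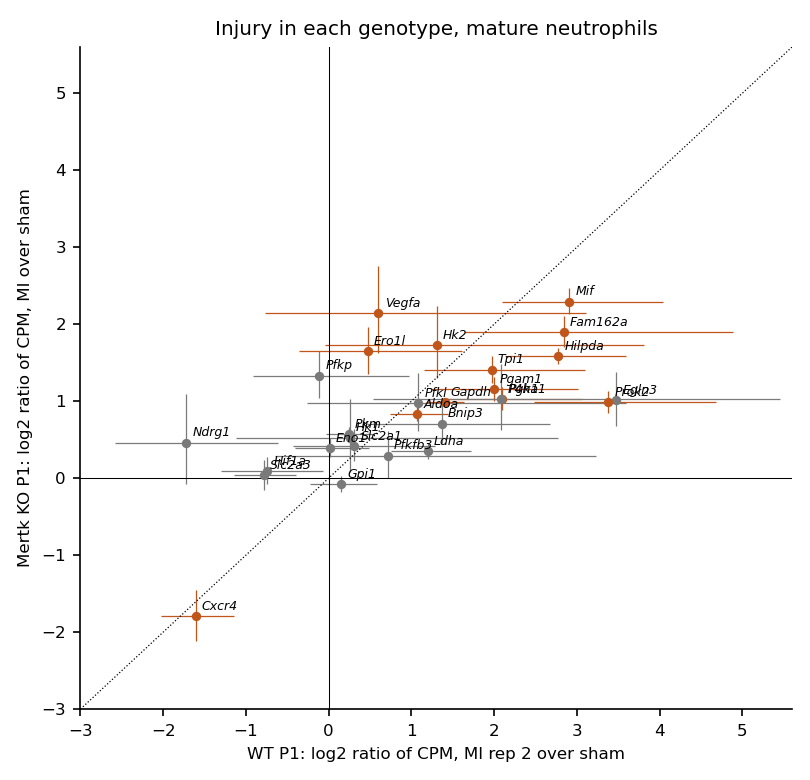
log2 ratio of CPM, MI over sham, in WT P1 (horizontal) and in KO P1 (vertical) for the 24 glycolysis and hypoxia genes and for Hilpda, Fam162a, Prok2 and Cxcr4, with 95% counting intervals. Orange marks genes called by injury, grey the others, and the dotted line equal ratios. Mif, Hilpda and Fam162a lie high in both genotypes, and Cxcr4 is below 0 in both.

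Chemokines and cytokines were higher after injury in 6 of 19 cases and lower in 1, and DESeq2 called none of them. Of 15 genes that tissue digestion can induce 7 were called higher beside them (Hspb1, Hspa1a, Hspa1b, Jun, Ier3, Egr1 and Fos), or 1 over members with few other-lineage UMIs, and their part was not tested. Cxcl1, a CXCR2 ligand, was at 6.44, 166, 41.8, 46.1 and 109 CPM (log2 fold change 2.17 ± 0.46 (SE), edgeR adjusted p = 3.22e-04), and Ccl2, the main monocyte chemokine, at 6.44, 149, 32.8, 64.7 and 141 CPM (log2 fold change 2.02 ± 0.45 (SE), edgeR adjusted p = 8.14e-04). WT P1 sham held 1 UMI of each. Cxcl1 was not called among members with few other-lineage UMIs (1.40), and Ccl2 was (1.88). The log2 fold change was 1.61 for Cxcl2, whose call was lost there too (2.11), and 2.40 for Ccl4, which was called again (2.74), as were the remaining genes Cxcl10 and Vegfa. Csf1, chosen after its values had been seen, was at 251, 80.3, 230.1, 158 and 52 CPM (log2 fold change -1.43 ± 0.38 (SE), edgeR adjusted p = 0.00817), and lost its call among members with few other-lineage UMIs (-1.22). Prok2, at the values given above, was higher after injury (log2 fold change 2.13 ± 0.39 (SE), edgeR adjusted p = 1.40e-05). Fibroblast and endothelial markers were higher as well, 4 and 6 of 7 each, and the endothelial sums were 109, 2410, 1380, 69.5 and 558 CPM, with Cdh5, Kdr, Egfl7, Tie1 and Emcn at 0 in WT P1 sham. Neither list had a call over members with few other-lineage UMIs, which was largely fixed in advance because members were removed by these same markers. The part of such cells in the chemokine values was not tested.

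Cxcr4 and 4 other genes described here were among the named genes called lower after injury. Chil3 was called lower too (log2 fold change -3.99). It was at 803 CPM in KO P1 sham and 10.4 CPM in KO P1 MI, but at 0 in WT P1 sham and 11.4 CPM in WT P1 MI. Cd74 was also called lower, and its sign turned over members with few other-lineage UMIs (0.70). Cxcr4 was lower after MI in both genotypes (log2 fold change -1.50 ± 0.37 (SE), edgeR adjusted p = 0.00378). The log2 ratio was -1.61 (-2.02 to -1.14) in WT and -1.79 (-2.11 to -1.45) in KO, and the call was lost among members with few other-lineage UMIs (-1.20). Its level thus ran from 572 CPM at 8 weeks and 322 CPM in WT P1 sham down to 24.6 CPM in KO P1 MI. Tsc22d3, the glucocorticoid-induced leucine zipper, was at 270.4, 71.9, 343, 159.7 and 36 CPM (log2 fold change -1.85 ± 0.38 (SE), edgeR adjusted p = 1.70e-04), and Dennd4a, an exchange factor for Rab proteins, at 1474, 263, 805, 617 and 194 CPM (log2 fold change -1.88 ± 0.36 (SE), edgeR adjusted p = 3.27e-05). Mirt1, a long noncoding RNA named for infarction, was at 412, 72.2, 208, 268 and 77.6 CPM (log2 fold change -1.94 ± 0.37 (SE), edgeR adjusted p = 2.60e-05), and Olfm4 had a log2 fold change of -1.93. For these 4 genes each MI library lay below the sham library of its genotype, and all 4 were called again over members with few other-lineage UMIs. By CPM, 207 genes were at least 2-fold higher (9.13%) and 602 lower (26.6%) in the WT pair, and 130 higher (6.57%) and 105 lower (5.31%) in the KO pair. TMM scaling moved these ratios by 0.493 and -0.0928, and the share of higher genes from 25.6 to 58.4% and from 55.3 to 46.1%. In the pair by age, with 160 higher (6.69%) and 192 lower (8.03%), it moved them by 0.278 and that share from 45.5 to 70.7%.

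For other neutrophil functions the calls stand beside the share of all genes called higher, 1.19% at 8 weeks, 2.62% after injury and 1.69% in KO. Of the 7 NADPH oxidase genes edgeR called none in any of the 3 comparisons, with 0, 0 and 4 genes at an unadjusted p under 0.05 for age, injury and genotype, and DESeq2 called none. Their median log2 fold change by genotype was 0.820 against 0.0607 over all genes tested. Among them Cybb was at 219, 125, 159, 86.7 and 102 CPM and Ncf4, a cytosolic subunit, at 328, 387, 198, 513 and 646 CPM. Of 14 tested genes of eicosanoid synthesis, Ptgs2 and Hpgd were called higher at 8 weeks, Hpgd after injury, and Alox5ap and Ptges in KO, and only Ptgs2 was called again over members with few other-lineage UMIs. Alox5, the enzyme that starts leukotriene synthesis, was at 90.1, 54.1, 68.5, 77.1 and 57.7 CPM and was not called, whereas Alox5ap, which presents arachidonic acid to it, was at 985, 1579, 1348, 2858 and 1736 CPM (log2 fold change 1.27 ± 0.40 (SE), edgeR adjusted p = 0.0473). That call was lost among members with few other-lineage UMIs (0.95). Siglecf, a marker of long-lived tissue neutrophils, was at 6.44, 5.86, 6.76, 3.44 and 12.3 CPM and not called, and of the 14 genes on its list Ccl3, Hif1a and Slc2a1 were called, in KO. The survival gene Mcl1 was at 2337, 1444, 2088, 1758 and 2137 CPM and was not called.

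The targeted gene itself did not check the label. Mertk had 0, 4, 14, 22 and 195 UMIs in members, or 0, 1.12, 4.5, 15.1 and 22.4 CPM, and was called higher in KO (log2 fold change 4.53 ± 0.92 (SE), edgeR adjusted p = 1.01e-04, and 4.74 over members with few other-lineage UMIs). The reads lie at the 3′ end of transcripts, and the deleted part of the gene is not in the labels, so these counts say nothing about the deletion. After thinning to 500 UMIs 0, 0, 0, 0.958 and 0.809% of members had a Mertk UMI. Within 2000000 bases of the start of Mertk on chromosome 2 lie 93 annotated genes, 44 of which were tested. Mertk, Il1a and Bcl2l11 were called higher and none lower, and the median log2 fold change was 0.118, against 0.0607 over all genes. Elsewhere, 2 genes chosen after their values had been seen were present in KO libraries and nearly absent from WT. Gm50022 was at 0, 0.836, 0, 162 and 165 CPM with 3 UMIs in the 3 WT libraries together (log2 fold change 7.85 ± 0.69 (SE), edgeR adjusted p = 8.59e-26), and Ifi202b, an interferon-inducible gene, at 0, 0, 0, 8.95 and 12.1 CPM with no UMI in WT (adjusted p = 2.75e-04, edgeR). The strain background of the KO animals is not in the labels and was not tested.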

How the data were processed

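The deposited files were 10x matrices of raw UMI counts per gene and barcode, made by the authors with Cell Ranger (4.0.0 or 6.1.0, per the file headers) on mm10. Members were found by the stated rule and their counts summed per library. edgeR 4.0.16 (R 4.3.3) fitted age, injury and genotype together by its quasi-likelihood test with TMM scaling and Benjamini-Hochberg adjustment over 11052 genes. DESeq2 1.42.0 was an alternative. Pairs of libraries were compared by log2 ratios of CPM with 0.5 counts added, with exact counting intervals and no test. Python 3.11.15, numpy 2.4.6, pandas 2.3.3, scipy 1.17.1 and scanpy 1.11.5 were used, and the fit was tested on simulated data.

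The members and the 28 gene lists were chosen with earlier results of these data known. Genes were named if they stood on a fixed list, were among the 6 largest or 6 smallest called changes with a mean of at least 100 CPM outside marker and sex-linked genes, were called within 2000000 bases of Mertk, or were among up to 4 examples of a list with at least 50 CPM. Csf1, Prtn3, Rsad2, Hilpda, Fam162a, Prok2, Gm50022 and Ifi202b were added after their values had been seen. Doublets were not removed, and removal by Scrublet was an alternative. Nothing in the labels says that libraries came from separate animals, so p-values measure only the spread between libraries. Intervals cover counting error only. Gene positions came from an annotation of GRCm38, and promoters from RefSeq on GRCm38.p6.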

Additional observations from a re-analysis of the deposited data

Results flagged for a closer look

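For 3 genes the log2 ratio of MI to sham lay past 2-fold in opposite directions in WT and KO at P1, and the difference was not tested. Tnf, a proinflammatory cytokine, had a ratio of 2.55 in WT and -1.30 in KO, from 25.8, 169, 38, 253 and 103 CPM. Cd177 had 2.43 in WT and -1.68 in KO, from 19.3, 121, 16.7, 286 and 89.2 CPM. Crip1, a LIM domain protein, had -1.76 in WT and 1.19 in KO, from 1642, 486, 566, 123 and 280 CPM. Each ratio rests on 1 library a side.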

How the results depend on the processing

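No paired analysis was possible because the compared groups have 1 library each and share no replicate pairs. The fit had 1 residual degree of freedom, so leaving out any P1 library gave values with no test, and the shallowest library, WT P1 sham, set the precision of low genes. Without WT 8 week sham the calls by injury and genotype were 352 and 282, and 3 near Mertk. Calls by age, injury and genotype went to 24, 17 and 37 with DESeq2, to 21, 29 and 15 after thinning to 500 UMIs, to 90, 107 and 104 over members with under 5 other-lineage UMIs, and to 31, 22 and 106 with the 2 libraries under 20 members included. Removal by Scrublet left 101 calls by age. With S100a8 and S100a9 at 2% or more injury had 213 calls, and with Camp, Ngp and Ltf under 0.25% it had 603. DESeq2 and thinning left 0 calls near Mertk. After thinning, 364 genes passed 2-fold in the WT injury pair, 409 in the KO injury pair and 183 in the sham genotype pair, and over members with few other-lineage UMIs 125 in the MI genotype pair.

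Shares with Ptprc barcodes as denominator were 4.92% (WT P1 sham), 5.28% and 18.1% (WT P1 MI), 9.71% (WT 8 week sham), 20.6% (KO P1 sham) and 33.7% (KO P1 MI). The other shares are not over Ptprc barcodes, and are given for WT P1 MI replicate 2, WT 8 week sham, KO P1 sham and KO P1 MI. With the rule applied after thinning to 1000 UMIs, 2.85, 5.32, 7.13 and 16.4% of all barcodes with at least 1000 UMIs were members. Without members of 5 or more other-lineage UMIs the shares of all kept barcodes were 2.51, 4.17, 10.3 and 23.4%. With S100a8 and S100a9 at 2% or more WT 8 week sham had 5.94% and KO P1 MI 28.4% of all kept barcodes.

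These called fold changes (log2) changed sign, and the cause was not tested. Over members with few other-lineage UMIs they were -0.10 (Mgp, injury), -0.46 (Ccl5, genotype), 0.70 (Cd74, injury), -0.56 (Sparc, genotype), -1.10 (Id3, age), 3.75 (H2-Aa, injury), 7.02 (H2-Ab1, injury) and 1.87 (Crip1, injury). With Scrublet they were 0.77 (Cd74), 2.96 (H2-Ab1) and 2.05 (Crip1), all by injury. Sparc by genotype was -0.48 after thinning to 500 and -0.14 with the rule after thinning to 1000 UMIs, and with the small libraries included Fos by injury was -0.087 and Prtn3 by genotype -3.70. Leaving out 1 library at a time moved Chil3 from -7.54 to 7.19 by age, from -6.35 to 8.51 by injury and from -0.029 to 14.5 by genotype, the lowest without KO P1 sham. By age Sparc ran from -0.33 to 4.12, and by injury Wfdc17 ran from -0.48 to 5.70 and Saa3 from -0.59 to 15.8. Of 125 called changes of named genes, DESeq2 kept 28, the removal of members with other-lineage UMIs 66 of the 121 tested there and thinning to 500 UMIs 37 of 123. Including the libraries under 20 members kept 26 of 125, with 97 weaker and 2 reversed. Removal by Scrublet kept 66 of 125, with 58 weaker and 1 reversed.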
